A study of Gallus gallus with 8 samples.

Results

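Follistatin, myostatin and the activin receptors form a signalling module that sets the growth of skeletal muscle. Their messenger RNA was measured here in the breast muscle of broiler chickens whose meat differed in shear force, the force needed to cut it. The genes were chosen by name from the authors' deposited result table, as follistatin (FST), follistatin-like 1 (FSTL1), myostatin (MSTN) and the activin receptors ACVR2A, ACVR2B and ACVR1. Of these 6 names, 4 stood in the table under the same symbol. Myostatin stood there under its older symbol GDF8, which RefSeq lists as a synonym of MSTN, and is called GDF8 below. ACVR2B matched no symbol and was not analysed here. This gave 5 genes of the 17108 in the count table, and all 5 passed the filter on low counts, as did 10136 genes in all. The set was proposed with the high against low shear force results of these birds already known, follistatin's difference among them. Fold changes of the 5 genes between the groups are therefore given as a description, with no test.

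The birds were 4 females of the meat-type strain Hubbard Flex with high shear force of the pectoralis, the large breast muscle, and 4 females of the same strain and tissue with low shear force, all 6 weeks old. They are called high and low birds below. The question was which genes differ between tougher and more tender breast meat. The labels give the group of each bird and not its shear force, and they do not say how birds were chosen or whether they shared a pen or a batch. Total expected counts, that is, estimated read counts, ran from 5564905 to 7322205 per bird. In a principal component analysis of all kept genes low birds 1 and 3 stood apart, at 38.9 and 43.9 on a first component with 32.4% of the variance, while the other 6 birds lay between -24.4 and -3.27. Log2 fold changes without both of these birds are given where they turn a direction or differ by over 1.5 times.

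Myostatin is a secreted ligand of the TGF-beta family, made by muscle fibres, that restrains muscle growth. It is cleaved from a propeptide, binds a type II activin receptor on the fibre, which then recruits and phosphorylates a type I receptor, and the signal passes to SMAD proteins that enter the nucleus. Follistatin is a secreted protein that binds activins and myostatin and keeps them from their receptors, so that more follistatin means larger muscles in mice. Follistatin-like 1 carries a follistatin-type domain but is made largely by mesenchymal cells and acts mainly on the related BMP ligands in mice. ACVR2A is a type II receptor for activins and myostatin. ACVR1, also called ALK2, is a type I receptor best known for BMP signals.

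The muscle origin of the samples was plain from the fibre markers. Of 12 listed fibre markers 7 were measured, among them the actin gene ACTA1 and the troponins TNNI2 and TNNT3. Here and below, a listed gene is called measured if it matched a symbol in the authors' result table and passed the filter. The summed level of the 7 fibre markers ran from 107500 to 130300 CPM in high birds and from 101500 to 141700 CPM in low birds. CPM is the expected count per 1000000 counts of the library, with library sizes scaled by TMM. Markers of other cell types were also among the genes that passed the filter on low counts. The 7 measured fibroblast markers (of 8 listed) summed to between 3245 and 4484 CPM in high birds and between 2348 and 3157 CPM in low birds, so that these ranges did not overlap. Summed smooth muscle and pericyte markers (5 of 6) ran from 200.7 to 367.7 CPM in high birds and from 126 to 181 CPM in low birds, and summed erythrocyte markers (3 of 5) from 157 to 610 CPM in high birds and from 56.1 to 92.7 CPM in low birds. The ranges overlapped for satellite cells (4 of 6; 143 to 185 CPM in high birds and 88.8 to 179 CPM in low birds), endothelium (7 of 8; 258 to 481 and 219 to 365 CPM, high and low), adipocytes (4 of 5; 205 to 297 and 120.0 to 274 CPM, high and low) and leukocytes (5 of 6; 675 to 1592 and 734 to 1197 CPM, high and low). In whole tissue, more cells of a type and more RNA per cell cannot be told apart.

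Follistatin was about double in high birds, with no overlap between the groups. FST had 33.0, 31.0, 26.2 and 23.4 CPM in high birds 1 to 4, against 12.0, 13.2, 15.3 and 17.1 CPM in low birds 1 to 4. The lowest of the high birds still lay above the highest of the low birds. The means were 28.4 ± 4.39 CPM in high birds and 14.4 ± 2.29 CPM in low birds (SD, n = 4 each), a log2 fold change of 0.98 ± 0.18 (SE), or 1.97-fold. The counts behind these levels were 160 to 223 reads in high birds and 75 to 119 reads in low birds. Counting error alone would give a coefficient of variation of 7.08% in high birds and 10.3% in low birds, against the 15.4% and 15.9% observed in the high and the low group. FST lies on chromosome Z, 15930691 to 15938408, in the coordinates of the authors' table, whose build is galGal4 per the submitters' processing notes. All 8 birds are female and so carry a single Z chromosome.

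**Figure D1:**
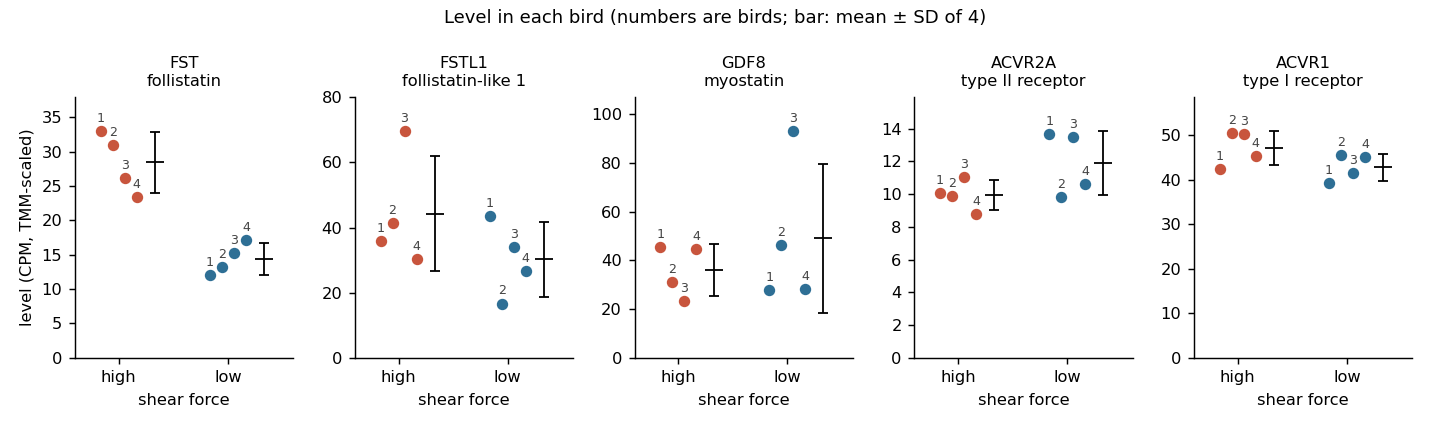
Level of each of the 5 genes in each bird, in TMM-scaled CPM (vertical axes starting at 0, a scale of its own per gene), for high (red, left) and low (blue, right) shear force birds; numbers are birds, bars the mean ± SD of 4. The groups are apart for FST, between 23.4 and 33.0 CPM in high birds and between 12.0 and 17.1 CPM in low birds, and overlap for the other 4 genes.

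Across the table as a whole the call on follistatin depended on the tool, and for edgeR also on the fit, made here or by the authors. The edgeR quasi-likelihood test called 0 of 10136 genes at an adjusted p under 0.05 (0%), hence 0 of the 5, and limma-voom likewise called 0 (0%), with 1272 genes (12.5%) at an unadjusted p under 0.05. At an unadjusted p under 0.05 edgeR had 1301 genes (12.8%), 803 of them higher (7.92%), with FST the only one of the 5. DESeq2 called 123 genes (1.21%), of which 90 were higher in high birds (0.888%), again with FST alone among the 5. In the authors' deposited table edgeR called 91 of 8076 genes (1.13%) and DESeq2 147 (1.82%), and with both tools FST was the 1 of the 5 among them. Levels that did not overlap between the groups were found for 626 genes (6.18%), of which 394 (3.89%) were higher in high birds, and for 1 of the 5, FST. Nothing is read from these shares, because the genes were chosen with this contrast known.

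With each bird left out in turn the log2 fold change of FST ran from 0.88 to 1.06, and it was 0.87 without low birds 1 and 3. The summed fibroblast, smooth muscle and erythrocyte markers were also higher in high birds, without overlap between the groups. Their part in the difference of FST was not tested. Set against the fibroblast markers within each bird, FST had 9.37, 7.601, 5.85 and 7.22 CPM per 1000 CPM of markers in high birds 1 to 4, against 3.796, 5.605, 5.87 and 7.02 in low birds 1 to 4. On this scale the groups overlapped, since high bird 3 lay below low birds 3 and 4. The log2 difference on it was 0.44 ± 0.23 (SE, n = 4 each), and relative to PDGFRA, a receptor that marks fibroblasts, it was 0.59 ± 0.23 (SE, n = 4 each). Both scalings were chosen after the values were seen. FST was not set against the smooth muscle or erythrocyte markers in this way.

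Follistatin-like 1 varied far more between birds of a group than follistatin did. FSTL1 had 35.8, 41.3, 69.7 and 30.3 CPM in high birds 1 to 4, against 43.6, 16.7, 33.9 and 26.5 CPM in low birds 1 to 4. High bird 3 was the highest and low bird 2 the lowest of the 8, and the groups overlapped. The means were 44.3 ± 17.6 CPM in high birds and 30.2 ± 11.4 CPM in low birds (SD, n = 4 each), a log2 fold change of 0.55 ± 0.31 (SE). The coefficient of variation was 39.6% in high birds and 37.8% in low birds, against 5.58% and 7.07% from counting error, so that counting made up little of this spread. Differences between birds and between the handling of their samples cannot be told apart here. The fold change leaned on the birds at either end: it was 0.24 without high bird 3 and 0.32 without low bird 2. Without low birds 1 and 3 it was 1.00. Relative to the fibroblast markers the means were close, at 11.3 ± 2.87 CPM per 1000 CPM of markers in high birds and 11.2 ± 3.01 in low birds (SD, n = 4 each), a log2 difference of 0.025 ± 0.27 (SE). FSTL1 lies on chromosome 1, 79303743 to 79343999.

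Myostatin had no common direction between the groups, and 1 bird decided its mean. GDF8 had 45.3, 31.0, 23.2 and 44.5 CPM in high birds 1 to 4, against 27.97, 46.3, 93.2 and 28.4 CPM in low birds 1 to 4. Low bird 3 stood far above the rest, while the other 7 birds of both groups shared a single range. The means were 36.0 ± 10.8 CPM in high birds and 49.0 ± 30.7 CPM in low birds (SD, n = 4 each), a log2 fold change of -0.45 ± 0.38 (SE). Without low bird 3 the log2 fold change was 0.06, on the other side of 0, and without low birds 1 and 3 it was -0.09. With 185 to 304 reads in high birds and 169 to 725 reads in low birds, counting error would give a coefficient of variation of 6.34% and 5.46%, against an observed 29.9% in high birds and 62.7% in low birds. GDF8 lies on chromosome 7, 195700 to 201192.

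Because follistatin binds the myostatin protein, the transcripts of both were also compared inside each bird, as a ratio of counts that needs no scaling between libraries. The ratio has no meaning as a molar one, since counts are not scaled by gene length. There were 0.729, 1.0, 1.13 and 0.526 FST counts per GDF8 count in high birds 1 to 4, against 0.429, 0.284, 0.164 and 0.604 in low birds 1 to 4. High bird 4 lay below low bird 4, so the groups overlapped although FST by itself did not. The mean ratio was 0.846 ± 0.271 in high birds and 0.370 ± 0.189 in low birds (SD, n = 4 each), a log2 difference of 1.29 ± 0.47 (SE). Low bird 3, with the lowest ratio, was also the bird whose GDF8 stood far above the rest. Without that bird GDF8 by itself was at a log2 fold change of 0.06. The ratio was not computed again without low bird 3, so the difference in the ratio is not read as larger than that of FST.

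The receptors had the smallest fold changes of the 5 genes, with overlapping groups. ACVR2A had 10.1, 9.87, 11.04 and 8.79 CPM in high birds 1 to 4, against 13.7, 9.83, 13.5 and 10.6 CPM in low birds 1 to 4. Low birds 1 and 3, which stood apart over all genes, were the highest, and the other low birds lay within the range of the high birds. The means were 9.94 ± 0.921 CPM in high birds and 11.9 ± 1.98 CPM in low birds (SD, n = 4 each), a log2 fold change of -0.26 ± 0.19 (SE), which was -0.07 without low birds 1 and 3. With 60 to 88 reads in high birds and 56 to 105 reads in low birds, ACVR2A was the gene of the 5 with the fewest counts. Its spread in high birds, 9.26%, was no larger than the 11.9% that counting error alone would give, so that smaller differences between these birds were not detectable at this depth.

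ACVR1 was the steadiest of the 5 genes. It had 42.5, 50.5, 50.2 and 45.3 CPM in high birds 1 to 4, against 39.2, 45.5, 41.4 and 45.0 CPM in low birds 1 to 4. The groups overlapped. The means were 47.1 ± 3.897 CPM in high birds and 42.8 ± 3.00 CPM in low birds (SD, n = 4 each), a log2 fold change of 0.14 ± 0.13 (SE). Leaving out single birds moved it between 0.07 and 0.19, and without low birds 1 and 3 it was 0.02. The coefficient of variation, 8.28% in high birds and 7.02% in low birds, was close to the 5.47% and 6.02% from counting error. In counts, ACVR1 over ACVR2A stood at 4.22, 5.11, 4.54 and 5.15 in high birds 1 to 4, against 2.87, 4.62, 3.07 and 4.25 in low birds 1 to 4, with the lowest ratios in low birds 1 and 3. ACVR2A and ACVR1 are both on chromosome 7, at 34001588 to 34054530 and at 35757877 to 35778048.

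**Figure D2:**
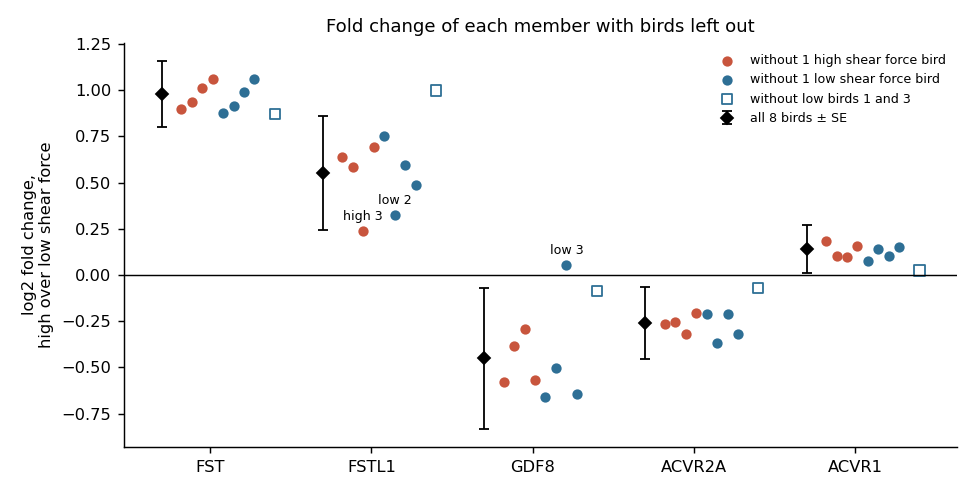
Log2 fold change, high over low shear force (vertical axis), of each of the 5 genes over all 8 birds (black diamond, ± SE), without each high (red) or low (blue) shear force bird in turn, and without low birds 1 and 3 together (open square). FST stays between 0.87 and 1.06, while GDF8 moves from -0.45 over all 8 birds to 0.06 without low bird 3.

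The authors' deposited fold changes, turned here to high over low, had the same direction for each of the 5 genes. In the authors' deposited table the edgeR log2 fold changes were 0.95 for FST, 0.53 for FSTL1, -0.47 for GDF8, -0.29 for ACVR2A and 0.12 for ACVR1. The authors' deposited DESeq2 values were smaller, from 0.76 for FST to -0.23 for GDF8. Each of the 5 genes had 1 transcript in the deposited transcript table, with counts equal to the gene counts in all 8 birds, so these tables hold no information on isoforms such as the short and long forms of follistatin.

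The 5 genes were also set against each other over the birds. Of the 10 pairs, 0 had a correlation of log2 CPM over the 8 birds with an adjusted p under 0.05 (exact permutation of birds, 2-sided, Benjamini-Hochberg over 10 pairs), and at an unadjusted p under 0.05 there was likewise no pair. FST with GDF8 stood at a Pearson r of -0.19 (exact permutation p = 0.681, adjusted p = 0.713, n = 8) and a Spearman rho of -0.07 (exact permutation p = 0.882, adjusted p = 0.977). The r of FST with GDF8 was -0.57 without the 2 birds farthest from the median of FST, and 0.14 for values centred on the group means. With 1 bird left out it ran from -0.43 to 0.06, so its sign was not stable. The strongest pair was ACVR2A with ACVR1 at an r of -0.59 (exact permutation p = 0.117, adjusted p = 0.496, n = 8) and a rho of -0.59 (exact permutation p = 0.132, adjusted p = 0.570). The 2 birds farthest from the median of ACVR2A were low birds 1 and 3. Without them r was 0.302 (exact permutation p = 0.533), so its sign turned. For values centred on the group means over all 8 birds it was -0.38. No relation between the 2 receptors was shown with or without these birds. FSTL1 with ACVR2A had an r of 0.33 over the birds as they are (exact permutation p = 0.433, adjusted p = 0.619), a rho of 0.55 (exact permutation p = 0.171, adjusted p = 0.570) and an r of 0.39 without the 2 birds farthest from the median of FSTL1. Once each value was set against the mean of its own group, r was 0.898 (permutation p = 0.00335, adjusted p = 0.0335 over the 10 pairs, n = 8). That permutation moved birds freely across the groups, which centring does not allow, so its p is not exact and nothing is read from it. For uncentred values without low birds 1 and 3, r was 0.44 (exact permutation p = 0.374). Across all 8 birds the groups differed in opposite directions for these genes, FSTL1 being higher and ACVR2A lower in high birds on average.

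The genes whose profile over the 8 birds was most like each of the 5 were looked up by Pearson's r among 7605 named genes whose log2 CPM averaged 1 or more. This likeness is a description over 8 birds that share their libraries, with no test. For FST these were FGFR4, a fibroblast growth factor receptor (r = 0.97), LSS, the lanosterol synthase of cholesterol synthesis (0.97), and LSM7, a splicing protein (0.96). FGFR4 averaged 51.7 ± 6.34 CPM in high birds and 27.9 ± 6.06 CPM in low birds (SD, n = 4 each), and LSS 10.1 ± 1.42 CPM in high birds and 4.58 ± 1.02 CPM in low birds (SD, n = 4 each). Centred on the group means, the likeness to FST was 0.83 for FGFR4, 0.76 for LSS and 0.72 for LSM7. For FSTL1 the nearest were LLGL1, a cell polarity protein (0.98), and the laminin chains LAMC1 (0.97) and LAMB2 (0.97), which build basement membranes. LAMC1 is the symbol of 2 genes in the authors' table, and reads may be split between them. Centred on the group means, the likeness to FSTL1 was 0.97 for LLGL1, 0.99 for LAMC1 and 0.96 for LAMB2. For GDF8 they were BTBD3 (0.94), the inositol phosphatase INPP5B (0.93) and the calmodulin gene CALM (0.93), a symbol shared by 2 genes. Without low birds 1 and 3, BTBD3 and INPP5B were at 0.84 each and CALM at 0.92. For ACVR2A they were LMBRD2 (0.99), the microtubule protein CKAP5 (0.99) and the nuclear receptor coactivator NCOA2 (0.98). For ACVR1 they were DLK1, a regulator of muscle and fat cell differentiation (0.97), RABEPK (0.97) and the kinase RIPK2 (0.96).

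Around the 5 genes, 9 lists of pathway genes were set up by role. These lists name 96 further genes, of which 40 could be matched and passed the filter. A match needed an entry in the authors' result table, which 2060 of the 10136 kept genes lack. The values over all kept genes given below include those 2060 genes. By the edgeR quasi-likelihood test 0 of the 40 were called over all genes (0%, 0 of 10136). At an unadjusted p under 0.05 there were 13 of 40 higher and 1 of 40 lower in high birds, against 7.92% and 4.91% of all kept genes. DESeq2 called 1 of the 40, BMP6, which was higher, against 0.888% of all kept genes called higher. Levels did not overlap between the groups for 4 of the 40, against 6.18% of all kept genes. The median log2 fold change of the 40 was 0.15, and 27 had a positive value, while over all kept genes the median was 0.01 and 50.8% had a positive value. The median of the 40 was 0.025 without high bird 3, 0.30 without high bird 1 and 0.27 without low birds 1 and 3. None of the genes named in the following paragraphs passed in edgeR. They are those of smallest p in their list, except TWSG1, CRIM1, DCN and FBN1, which were named after their values were seen.

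Among the binding proteins and antagonists the fold changes were positive, as for FST, but some lay close to 0. All 9 measured genes of this list other than FST and FSTL1 had values above 0 over all 8 birds, at a median log2 fold change of 0.57, although 0 were called. TWSG1 and CRIM1 were nearest to 0, at 0.09 and 0.03. Without high bird 3, TWSG1 lay at -0.06, and without low birds 1 and 3 at 0.01. CRIM1 lay below 0 without high bird 1 or 3 or low bird 2 or 4, down to -0.13, and at 0.53 without low birds 1 and 3. NBL1, a BMP antagonist of the DAN family, had 56.6 ± 14.1 CPM in high birds and 29.8 ± 10.97 CPM in low birds (SD, n = 4 each), a log2 fold change of 0.93 ± 0.25 (SE; edgeR adjusted p = 0.218), with low bird 4 apart from the other low birds at 46.2 CPM. CHRD, chordin, which holds BMPs away from their receptors, had 7.47 ± 1.65 CPM in high birds and 4.05 ± 0.282 CPM in low birds (SD, n = 4 each), at 0.88 ± 0.24 (SE; edgeR adjusted p = 0.225). In CHRD the groups did not overlap, but its levels rested on 37 to 76 reads in high birds and 22 to 30 reads in low birds. Counting error was not worked out for CHRD. LTBP1, which anchors latent TGF-beta in the matrix, stood at 0.65 ± 0.20 (SE; edgeR adjusted p = 0.258). DCN and FBN1, of the same list, are also among the fibroblast markers, whose summed level did not overlap between the groups; the part of these markers in the list's values was not tested.

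Both measured ligands of the BMP branch had positive fold changes, while those of the activin and myostatin branch were mixed. BMP6 had 17.9, 24.9, 21.8 and 18.0 CPM in high birds 1 to 4, against 11.1, 14.0, 10.8 and 11.9 CPM in low birds 1 to 4, without overlap. Its log2 fold change was 0.79 ± 0.18 (SE; edgeR adjusted p = 0.150, DESeq2 adjusted p = 0.0249). BMP4 averaged 8.88 ± 2.23 CPM in high birds and 3.96 ± 1.98 CPM in low birds (SD, n = 4 each), at 1.19 ± 0.35 (SE; edgeR adjusted p = 0.254), and stood at 0.65 without low birds 1 and 3. The levels of BMP4 rested on 44 to 94 reads in high birds and 17 to 37 reads in low birds. BMP6 and BMP4 were the 2 of 12 listed BMP ligands that matched a symbol in the authors' result table and passed the filter. Of the activin, myostatin and TGF-beta ligands other than GDF8, 3 of 9 were measured, 1 with a positive and 2 with a negative fold change. CVG1, which RefSeq gives as an older symbol of GDF3, had 5.38 ± 0.846 CPM in high birds and 8.35 ± 1.74 CPM in low birds (SD, n = 4 each), a log2 fold change of -0.64 ± 0.24 (SE; edgeR adjusted p = 0.340), or -0.40 without low birds 1 and 3. TGFB3 stood at -0.20 ± 0.19 (SE; edgeR adjusted p = 0.663) and TGFB2 at 0.06 ± 0.25 (SE; edgeR adjusted p = 0.927); without low birds 1 and 3 they were at 0.04 and -0.27. TGFB2 also turned without high bird 3 (-0.03) or low bird 1 (-0.14), and TGFB3 was at -0.03 without low bird 3. The genes of the activin subunits, INHBA and INHBB, matched no symbol and were not analysed here.

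Proteases that cleave the propeptides of these ligands were measured for 4 of 7 genes, 3 of them with a positive fold change and a median of 0.34. TLL1, of the tolloid family that frees myostatin from its propeptide in mammals, had 9.74 ± 1.97 CPM in high birds and 6.53 ± 1.08 CPM in low birds (SD, n = 4 each), a log2 fold change of 0.58 ± 0.23 (SE; edgeR adjusted p = 0.340), with no overlap between the groups. PCSK6, a furin-like convertase, stood at 0.81 ± 0.31 (SE; edgeR adjusted p = 0.340), or 0.49 without low birds 1 and 3, and PCSK7 at -0.15 ± 0.19 (SE; edgeR adjusted p = 0.753), or -0.06 without low bird 2. In TLL1 the groups lay close, since high bird 1 had 8.14 CPM on 51 reads and low bird 1 had 7.99 CPM on 52 reads. TLL1 rested on 51 to 100 reads in high birds and 37 to 52 reads in low birds, so the counts themselves overlapped. PCSK6 rested on 31 to 68 reads in high birds and 19 to 30 reads in low birds. The list's median was 0.22 without high bird 3.

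Of the other receptors, 2 type II, 2 type I and 3 co-receptor genes were measured, of 3, 6 and 8 listed. BMPR-II, the type II receptor of BMPs, had 8.94, 12.1, 15.3 and 8.94 CPM in high birds 1 to 4, against 19.2, 9.65, 43.2 and 10.9 CPM in low birds 1 to 4. Like GDF8 it was highest in low bird 3, and its log2 fold change of -0.88 ± 0.44 (SE; edgeR adjusted p = 0.414) stood at -0.24 without low bird 3 and at 0.11 without low birds 1 and 3. TGFBR2 stood at 0.16 ± 0.26 (SE; edgeR adjusted p = 0.819), at -0.03 without low bird 2 and at 0.52 without low birds 1 and 3. Among type I receptors, ACVRL1, an endothelial receptor, stood at 1.07 ± 0.32 (SE; edgeR adjusted p = 0.258) and ACVR1B, the main type I receptor for activin and myostatin, at -0.16 ± 0.28 (SE; edgeR adjusted p = 0.834). ACVR1B turned to 0.12 without low birds 1 and 3, and to 0.13 without low bird 1 alone, while ACVRL1 was at 0.60 without both birds. The medians were -0.36 for the type II receptors, -0.02 without low bird 3 and 0.31 without low birds 1 and 3, and 0.46 for the type I receptors, or 0.30 without high bird 3. The 3 co-receptors all had a positive fold change, with a median of 0.55: ENG, endoglin, which is also an endothelial marker, stood at 0.84 ± 0.28 (SE; edgeR adjusted p = 0.297), RGMA at 0.55 ± 0.24 (SE; edgeR adjusted p = 0.372) and TGFBR3 at 0.28 ± 0.14 (SE; edgeR adjusted p = 0.433). All 7 endothelial markers had a positive fold change, with a median of 0.50, and their part in the values of ACVRL1 and ENG was not tested. Without low birds 1 and 3 RGMA was at 0.13. The median of the co-receptors ran from 0.37, without low bird 1, to 0.78, without low bird 4.

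**Figure D3:**
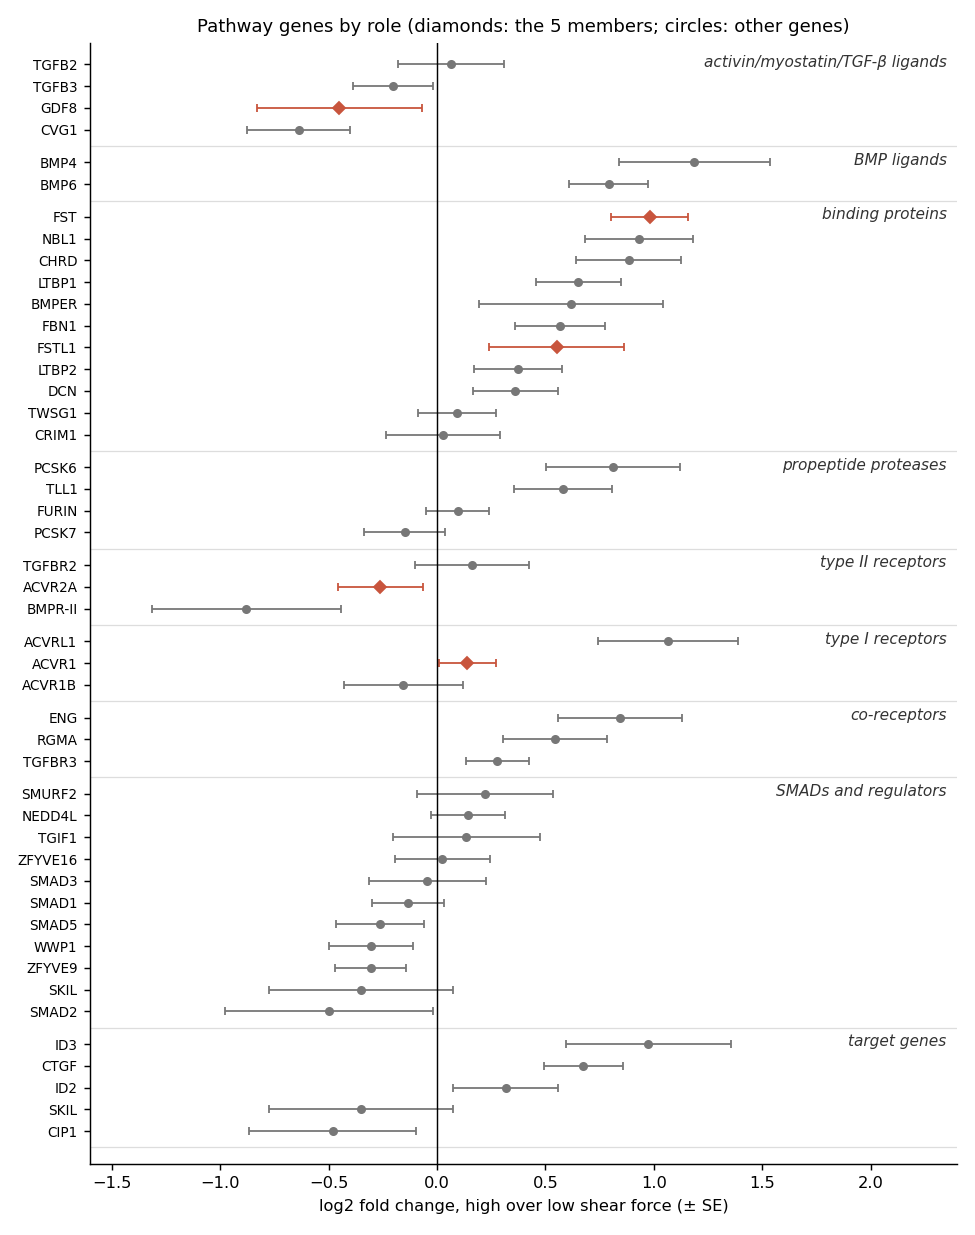
Log2 fold change, high over low shear force (horizontal axis, ± SE from the edgeR fit), of the 5 genes (red diamonds) and the 40 other measured pathway genes (grey circles), grouped by role; SKIL is in 2 groups. The binding proteins other than FST and FSTL1 are all above 0 with a median of 0.57, and the SMADs and their regulators lie around a median of -0.13.

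Inside the cell, the SMADs and their regulators were split. Of 11 measured genes (21 listed), 4 had a positive and 7 a negative fold change, with a median of -0.13 and 0 calls; with RLE scaling 3 were positive. The median was -0.26 without low bird 2 and -0.07 without low birds 1 and 3. ZFYVE9, which brings SMADs to the receptor, stood at -0.31 ± 0.16 (SE; edgeR adjusted p = 0.447), the ubiquitin ligase WWP1 at -0.30 ± 0.19 (SE; edgeR adjusted p = 0.520), and SMAD5, of the BMP branch, at -0.26 ± 0.20 (SE; edgeR adjusted p = 0.600). Without low birds 1 and 3 these were at -0.14, -0.12 and 0.05. Of the genes that the pathway is known to switch on or off, 5 of 14 were measured, 3 with a positive and 2 with a negative fold change, at a median of 0.32. CTGF, a matrix growth factor induced by TGF-beta, had 31.4 ± 6.41 CPM in high birds and 19.6 ± 2.63 CPM in low birds (SD, n = 4 each), a log2 fold change of 0.67 ± 0.18 (SE; edgeR adjusted p = 0.223), with no overlap between the groups. ID3, a direct target of BMP signals, stood at 0.97 ± 0.38 (SE; edgeR adjusted p = 0.340), and ID2 at 0.32 ± 0.24 (SE; edgeR adjusted p = 0.593). In CTGF the groups lay close, since high bird 1 had 23.15 CPM and low bird 1 had 22.28 CPM. Both of these birds had 145 CTGF reads, so the gap between them came from the scaling of the libraries. ID3 rested on 26 to 90 reads in high birds and 14 to 41 reads in low birds. Without low birds 1 and 3, ID3 was at 0.51 and ID2 turned to -0.07. The median of these targets, which is the value of ID2 over all 8 birds, ran from 0.17, without low bird 1, to 0.50, without low bird 2, and was 0.51 without low birds 1 and 3.

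**Figure D4:**
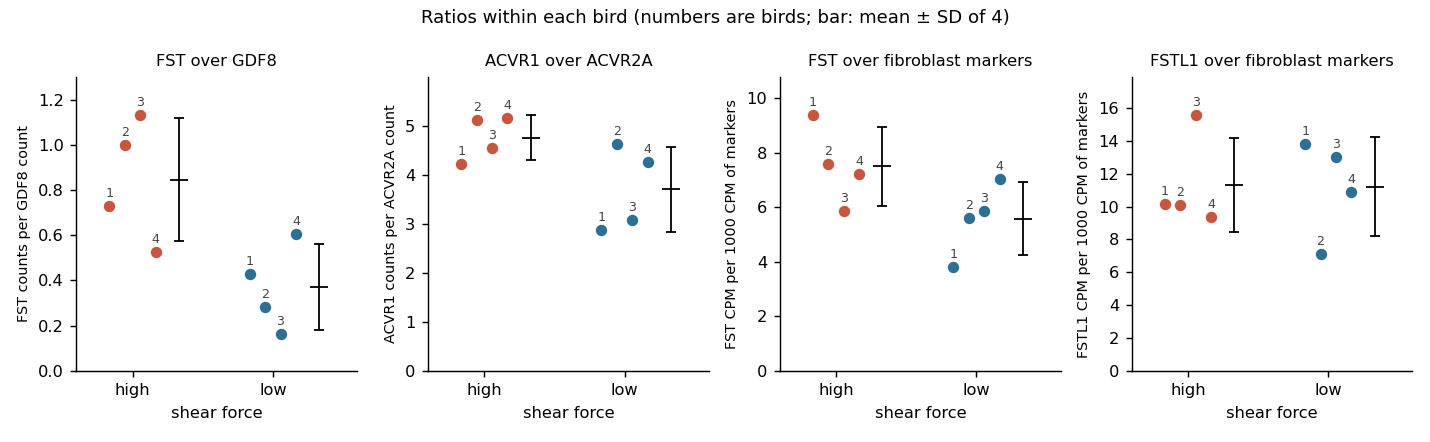
Ratios within each bird for high (red, left) and low (blue, right) shear force birds, all axes starting at 0: FST counts per GDF8 count, ACVR1 counts per ACVR2A count, and FST and FSTL1 CPM per 1000 CPM of summed fibroblast markers; numbers are birds, bars the mean ± SD of 4. The groups overlap in all 4 panels, and FSTL1 over fibroblast markers averages 11.3 in high birds and 11.2 in low birds.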

How the data were processed

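Per the labels' protocols, Trizol RNA from RNAlater-stored muscle went into Illumina TruSeq libraries, each sequenced in 2 technical repetitions. The authors deposited expected counts for 17108 genes (8.22% of values not whole); the sources used here do not say how repetitions were combined. The submitters' processing notes name TopHat, Bowtie2, RSEM, edgeR, DESeq2 and galGal4 without roles. The strandedness of the counting is likewise unstated, and overlapping genes may share counts. Log2 fold changes and p-values deposited by the authors (per the file headers) run low over high shear force, by their sign against the counts.

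Counts were rounded, filtered by filterByExpr (10136 genes kept) and TMM-scaled, and tested across all genes with the edgeR 4.0.16 quasi-likelihood test (robust, group only, Benjamini-Hochberg at 0.05, R 4.3.3). SE values are the unshrunk coefficient over the root of F. Log2 CPM has a prior count of 2. Scaling to fibroblast markers was added after seeing the data. Alternatives were RLE and upper-quartile scaling, other filters, a replicate block, birds left out, DESeq2 1.42.0, limma-voom (limma 3.58.1), transcript counts and the deposited fold changes. Each sample was taken as 1 bird, and p-values of the fit set the group difference against the spread between these samples. On simulated data for these birds and 10136 genes, the test called 46 of 100 genes with a log2 change of 1 and 89 of 100 with a log2 change of 2, with 9 false among 144 calls. Each gene was drawn on its own, without the difference that set low birds 1 and 3 apart. These rates therefore need not hold for the measured birds. The members and lists were chosen with earlier results of these data known. Named genes are the 5 members, in each list the 3 genes of smallest p, and for each member the 3 genes most like it. TWSG1, CRIM1, DCN, FBN1, PDGFRA, SMAD2 and SKIL were named outside this rule, after their values were seen. RefSeq supplied older symbols only. Depth was 5564905 to 7322205 counts a bird, and counting errors given cover counting only.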

Additional observations from a re-analysis of the deposited data

Results flagged for a closer look

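Among the 5 genes and the 24 pathway genes of smallest p in their lists, 29 in all, outliers were looked for in each group of 4 birds (58 groups), where chance alone flags about 1 group in 20. In 1 group a bird stood apart. Because 24 of the genes were picked by small p and all groups reuse the same 8 birds, that rate need not hold here. Whether this bird stood apart by chance was therefore not decided. NBL1 was at 46.2 CPM in low bird 4, while the other 3 low birds lay between 23.5 and 25.1 CPM. That bird lies within the range of the high birds. Low bird 3 was not flagged for GDF8 by this rule.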

How the results depend on the processing

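The direction of FST, FSTL1, ACVR2A and ACVR1 was the same under every alternative run, and that of GDF8 under all but the fit without low bird 3. With 1 bird left out the log2 fold changes ran from 0.88 to 1.06 (FST), 0.24 to 0.75 (FSTL1), -0.66 to 0.06 (GDF8), -0.37 to -0.21 (ACVR2A) and 0.07 to 0.19 (ACVR1). Without low birds 1 and 3, ACVR1 was at 0.024 and FST at 0.87. Relative to fibroblast markers and to PDGFRA, FST was at 0.44 and 0.59. Genes called numbered 123 with DESeq2, 7 with no filter and 0 to 7 with 1 bird left out, where genes at an unadjusted p under 0.05 numbered 799 (without low bird 1) to 1917 (without low bird 4); without low birds 1 and 3 there were 787. DESeq2 called 1 pathway gene. The median of the 40 pathway genes ran from 0.025 to 0.30 with 1 bird left out. Centring on the group mean gave 1 correlated pair, by a permutation whose p is not exact. The causes were not tested. Whether the replicate numbers pair the birds is not known from the labels. Deviations of same-numbered birds correlated at 0.01, -0.00, 0.20 and 0.32, and 3 of 8 birds were closest to their own number. Likeness of expression cannot decide how birds were numbered. A replicate block gave 1 call and left FST at 0.98. ACVR2A, at 56 to 105 reads, is limited by depth.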

Other observations

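SMAD2, which carries activin and myostatin signals to the nucleus, had 2.55 CPM in high bird 1, against 26.4, 21.6 and 26.5 CPM in high birds 2 to 4 and 24.7 to 29.2 CPM in the low birds. Its expected counts, 16.3 in that bird and 153 to 222 in the other 7, are not whole numbers, and how the authors' counting assigned reads here was not tested. The gene was named after its values were seen.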
